A study of Mus musculus with 32 samples.

Results

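The 10 genes described here encode acute phase proteins and cytokines. They are the acute phase proteins *Saa1*, *Saa3*, *Lcn2*, and *A2m*, the IL-1 family cytokines *Il1f9* (IL-36γ), *Il1b*, *Il18*, and *Il33*, the cytokine *Il6*, and the chemokine *Cxcl1*. They were taken by symbol from the 34453 rows of the count table, and each matched 1 row. *Saa3*, *Il1f9*, and *A2m* were included partly because they stood out in earlier fits of these data, so these 3 were chosen by their log2 fold changes between Nrf2 and control eyes and between the ages, and their values are given as a description with no test.

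RNA was extracted from the retinal pigment epithelium (RPE), the pigmented layer behind the photoreceptors, of *rd1* mice. These mice carry a mutation of *Pde6b* and lose their rods early, after which the cones degenerate. Each of 16 mice had a subretinal injection in both eyes, of AAV-Best1-Nrf2 plus AAV-Best1-GFP in the Nrf2 eye and of the GFP vector alone in the control eye. The Best1 promoter drives expression in the RPE, the Nrf2 delivered is the human protein (gene *NFE2L2*), and all eyes of both arms received the GFP vector. By the paper's methods, eyes given both vectors received a higher total dose, and the Nrf2 vector had a different capsid from the GFP vector. What is called the Nrf2 effect below therefore cannot be told apart from an effect of vector dose or capsid. There were 7 mice at P20 and 9 at P40, each giving 2 libraries, 32 in all, with separate mice at the 2 ages. The methods name fewer *rd1* pairs at each age than the labels and also name CD1 pairs at P40, so the strain of the P40 mice rests on the labels alone. Libraries were sequenced in 2 runs according to the labels, which do not tell them apart, so the run cannot be told apart from mouse or age.

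Acute phase proteins are made in large amounts, mainly by the liver, when IL-6 and IL-1 signal through STAT3, C/EBP factors, and NF-κB, and several are also made by epithelia and glia under stress. IL-1β and IL-18 are made as precursors that caspase-1 cleaves, whereas IL-33 and IL-36γ are stored in or released by barrier cells and report damage to their neighbors. Nrf2 is a transcription factor that binds antioxidant response elements, and it is known to restrain the transcription of some of these cytokines in macrophages.

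Sequence upstream of the start of transcription was examined for sites of these factors. RefSeq held a promoter entry for 9 of the 10 genes (GRCm38.p6), and the 250 bases before each start were searched on both strands, with the second start of *Il33* searched as well. The core of the antioxidant response element, TGACNNNGC, was found in 0 of the 9 genes and in 10.2% of all 32851 promoters. The C/EBP pair TTGCNNAA was found in 5 of the 9, namely *Saa1*, *Saa3*, *Lcn2*, *Il6*, and *Il33*, and in 9.56% of all promoters. The STAT element TTCNNNGAA was found in *Il1f9* and in 7.02% of all promoters, the AP-1 site TGANTCA in *Il6* and in 6.75%, and the NF-κB consensus in *Il6* and *Cxcl1* and in 3.90%. The string TATAAA of the TATA box was found in 3 of the 9 genes (*Il1b*, *Il18*, and *Il33*) and in 12.4% of all promoters. It began at base −31 in *Il1b*, and at −203 from the first and −29 from the second start of *Il33*. In *Il18* it lay on the opposite strand, at −175 to −170. A match is a string of letters and not a bound site. The 5 stretches shown are those of the neighboring *Saa1* and *Saa3*, of *Il1f9*, and of *Il6* and *Cxcl1*, the only members holding the NF-κB consensus. They read 5′ to 3′ in the direction of the gene, end before the first base of the GENCODE gene, and have the matches to the C/EBP, STAT, AP-1, and NF-κB motifs in capitals. *Saa1* (chr7:46742981-46743230, minus strand) and *Saa3* (chr7:46715701-46715926, minus strand) start 27.3 kb apart, *Il1f9* is at chr2:24186226-24186475 (plus strand), *Il6* at chr5:30012864-30013113 (plus strand), and *Cxcl1* at chr5:90890995-90891240 (plus strand).
Saa1: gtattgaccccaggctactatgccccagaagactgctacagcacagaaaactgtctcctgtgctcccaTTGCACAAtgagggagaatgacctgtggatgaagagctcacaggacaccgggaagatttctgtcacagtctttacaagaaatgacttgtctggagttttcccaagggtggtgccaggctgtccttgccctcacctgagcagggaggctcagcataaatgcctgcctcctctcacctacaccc
Saa3: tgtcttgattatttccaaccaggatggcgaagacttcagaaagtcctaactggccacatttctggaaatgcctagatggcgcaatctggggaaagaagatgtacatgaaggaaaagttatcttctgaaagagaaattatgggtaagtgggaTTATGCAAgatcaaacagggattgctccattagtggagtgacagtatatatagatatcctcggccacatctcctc
Il1f9: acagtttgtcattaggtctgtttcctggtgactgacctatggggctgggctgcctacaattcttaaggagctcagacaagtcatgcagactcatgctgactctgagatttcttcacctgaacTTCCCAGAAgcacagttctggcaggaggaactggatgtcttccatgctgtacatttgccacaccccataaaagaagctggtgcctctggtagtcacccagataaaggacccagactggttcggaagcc
Il6: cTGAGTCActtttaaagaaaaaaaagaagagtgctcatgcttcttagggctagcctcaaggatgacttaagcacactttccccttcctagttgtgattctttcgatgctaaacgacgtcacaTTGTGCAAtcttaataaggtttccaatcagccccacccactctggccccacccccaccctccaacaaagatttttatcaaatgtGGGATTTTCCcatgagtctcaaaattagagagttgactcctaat
Cxcl1: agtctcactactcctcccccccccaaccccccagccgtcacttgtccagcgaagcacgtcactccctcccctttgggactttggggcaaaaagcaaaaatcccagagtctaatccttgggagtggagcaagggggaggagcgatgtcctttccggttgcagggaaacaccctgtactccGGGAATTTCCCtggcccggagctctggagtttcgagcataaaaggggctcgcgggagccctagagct

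The libraries held between 16548332 and 50542797 estimated reads. The transgene separated the arms except for 2 libraries at P20. The control eye of P20 mouse 3 had 1098 CPM (counts scaled to library size) of *NFE2L2*, whereas the next control eye had 154 CPM, and the Nrf2 eye of P20 mouse 4 had 1082 CPM, whereas the next Nrf2 eye had 4809 CPM. These 2 libraries were also the most alike of all pairs, with a median squared difference of 4.04 times sampling noise against 12.9 for the next pair. For the 6 members that passed the filter on low counts at P20, the difference is therefore also given without mice 3 and 4. It is not given so for other single genes. RPE markers were abundant in every library by their sum (10 genes, 8984 to 66886 CPM). *Ttr* had the highest median of the 10 (7686 CPM, up to 59311 CPM), whereas *Best1* ran from 0.272 to 4.17 CPM. The median of the sum was 18125 CPM in Nrf2 against 14506 CPM in control eyes at P20, and 15100 against 23943 CPM at P40. The median log2 fold change of the 10 between the eyes was −0.0499 at P20 and −0.43 at P40. Of the 10, edgeR called 1 lower in Nrf2 eyes at P20 and 4 at P40, beside 0.485% and 1.23% of all genes, and 0 higher. Markers of the surface epithelium of the cornea, conjunctiva, and skin were abundant too, with all 10 detected in every library and a summed level from 595 to 65118 CPM. Their median was lower in Nrf2 than in control eyes, at 8696 against 26545 CPM at P20 and 11319 against 18705 CPM at P40, and edgeR called 0 of 10 between the eyes at either age. Of 8 liver markers, *Ttr*, which the RPE also makes, held nearly all of the sum. The median of this sum was 3108 CPM in control and 8634 CPM in Nrf2 eyes at P20, and 9239 and 10402 CPM at P40. It thus moved with the arm at P20 and with age in control eyes, as the median of *A2m* did. In Nrf2 eyes the sum was higher at P40, whereas the median of *A2m* was lower. Measured as deviation from the group mean over 32 libraries, *A2m* had an r of −0.00385 with this sum. Without *Ttr* the r was −0.348. The 7 liver markers other than *Ttr* summed to 1.65 to 18.1 CPM, with a median of 3.70 CPM in control and 2.57 CPM in Nrf2 eyes at P20. The part of these tissues in the results below was not tested. In whole-tissue RNA, fewer cells of a type and less RNA per cell cannot be told apart.

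Adjusted for length, the members differed widely in abundance. The median over the 32 libraries, in CPM per kb of exon, was 65.7 for *A2m*, 52.0 for *Il18*, 30.7 for *Saa3*, 27.9 for *Il1f9*, and 22.8 for *Il33*. *Lcn2* was far lower at 1.24 CPM per kb, and *Il1b* (0.127) and *Cxcl1* (0.108) stood near the limit of detection. *Saa1* and *Il6* had a median of 0. The ranges over libraries of the first 5 overlapped, so the order of neighbors among them is not firm. The range also differed between members, since the highest library held 66.1 times the lowest CPM for *Il1f9*, 41.9 times for *Lcn2*, 25.3 times for *Saa3*, 5.29 times for *Il18*, and 4.83 times for *Il33*.

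**Figure D1:**
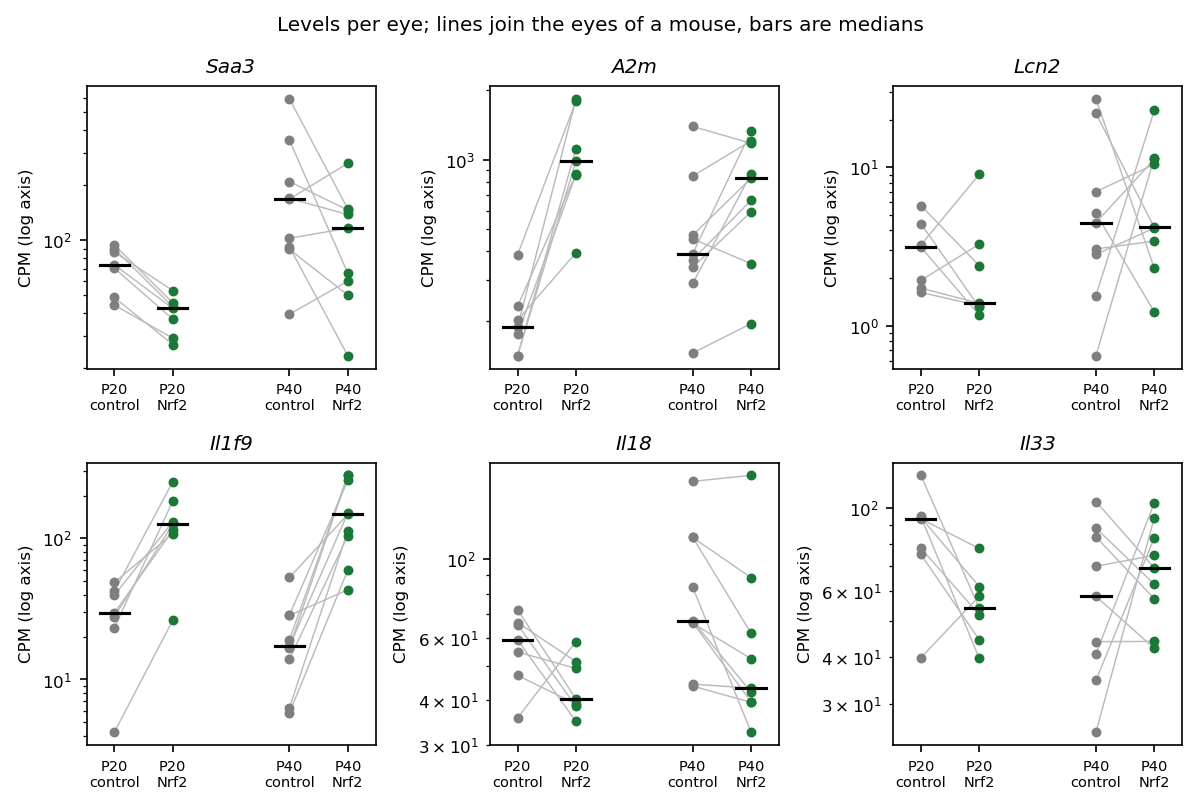
CPM (log axis) of the 6 members with reads in all 32 libraries, by age and eye, with 1 point per library, gray for control eyes and green for Nrf2 eyes, lines joining the eyes of a mouse, and bars at the medians. *Il1f9* is higher in the Nrf2 eye of all 16 mice, *A2m* in 7 of 7 at P20 and 7 of 9 at P40, and *Saa3* is lower in the Nrf2 eye of all 7 mice at P20.

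Among the acute phase proteins, *Saa3* was lower and *A2m* higher in Nrf2 eyes at P20. *Saa3* encodes serum amyloid A3, the member of the family that is made mainly outside the liver. At P20 its level ran from 44.3 to 94.3 CPM in control eyes (median 73.6) and from 26.9 to 53.2 CPM in Nrf2 eyes (median 42.5). The groups overlapped, yet the Nrf2 eye was the lower in 7 of 7 mice, by 0.60 to 1.05 on the log2 scale, and the fitted difference was −0.88 ± 0.09 (log2 fold change ± SE, n = 7 pairs), or 1.84 times lower. Without mice 3 and 4 it was −0.94.

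At P40 *Saa3* spread much more widely. It ran from 39.5 to 594 CPM in control eyes (median 168) and from 23.4 to 264 CPM in Nrf2 eyes (median 117), and was lower in the Nrf2 eye of 6 of 9 mice. The fitted difference was −0.76 ± 0.36, and pairs ranged from −2.42 to 0.65. The Nrf2 effect at P40 differed from that at P20 by 0.13 ± 0.42. With age, *Saa3* was higher at P40 by 1.53 ± 0.45 in control eyes and by 1.55 ± 0.39 in Nrf2 eyes. Of the 9 control libraries at P40, 6 lay above every P20 control library and 1 lay below them all, and of the 9 Nrf2 libraries 7 lay above and 1 below.

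The *Saa3* row followed that of an unrelated gene almost exactly. Measured as deviation from the group mean over 32 libraries, its log2 CPM had an r of 0.994 with *Zfp280d*, which encodes a zinc finger protein, 0.964 with *Mmachc*, a gene of cobalamin metabolism, and 0.933 with the noncoding *Snhg11*. Over the other members that passed the filter, the highest r of any with its nearest gene was 0.954. *Zfp280d* also shared the fitted differences of *Saa3*, with −0.87 at P20, −0.71 at P40, 1.45 with age in control eyes, and 1.54 with age in Nrf2 eyes. The values given above for *Saa3* are therefore nearly those of *Zfp280d*.

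The annotation shows where reads of *Saa3* could be shared. GENCODE M21 lists 3 transcripts of the gene, and *Saa3-202* (2200 bases) keeps intron sequence that the 555-base coding transcript *Saa3-201* lacks. Of its 2170 words of 31 bases, 166 also occur in transcripts of 3039 other genes, 1708 of them on the same strand, whereas the words that *Saa3-201* shares (30 of 525) occur in 2 other genes. The shared words that are not from *Saa1* or *Saa2* lie in 3 stretches of 86, 53, and 126 bases, all after the stop codon of *Saa3-202* and with 0 coding bases (GRCm38, chr7:46714117-46714202, chr7:46713985-46714037, and chr7:46712968-46713093). *Zfp280d* shares 49 of the words on the same strand, *Snhg11* 6 on the same strand and 3 on the opposite one, and *Mmachc* 2 on the opposite strand. Of the 20 genes most like *Saa3*, 9 share a word, or 45.0%, against 12.9% of all 11790 genes searched. Over all genes that share words the likeness was low. The median r with *Saa3* was 0.0621 over the 35 genes with 40 or more words on the same strand and −0.171 over the 10268 genes with none, and 17.1% and 4.70% of them had an r over 0.7. The deposited values are per gene, so how the reads divide among the transcripts of *Saa3* was not tested, and its level is uncertain to that degree.

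*Saa1*, the liver form that circulates in inflammation, was hardly detected. It had reads in 10 of 32 libraries and more than 3 reads in 6, with 90 reads in all. The highest libraries were the control eye of P40 mouse 2 with 36 reads, the Nrf2 eye of P20 mouse 2 with 17, and the Nrf2 eye of P40 mouse 8 with 16. No group had a median above 0, *Saa1* did not pass the filter on low counts in any comparison, and a difference was not detectable at this depth. Of the 579 words of its coding transcript, 174 are shared with 2 other genes, so even these reads may be divided among the family.

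*Lcn2* encodes lipocalin 2, which binds bacterial siderophores and is strongly induced in stressed epithelia and glia. Its level at P20 was 1.62 to 5.74 CPM in control eyes (median 3.13) and 1.16 to 9.03 CPM in Nrf2 eyes (median 1.38). At P40 it was 0.646 to 27.1 CPM in control eyes (median 4.48) and 1.22 to 22.9 CPM in Nrf2 eyes (median 4.17). The groups overlapped throughout, and the Nrf2 eye was the higher in 2 of 7 mice at P20 and 6 of 9 at P40. The fitted differences were −0.44 ± 0.45 at P20 (edgeR adjusted *P* = 0.640, n = 7 pairs) and 0.22 ± 0.85 at P40 (edgeR adjusted *P* = 0.970, n = 9 pairs). Without mice 3 and 4 the difference at P20 was −0.50 (edgeR adjusted *P* = 0.674). With age the difference was 1.44 ± 0.64 in control eyes (edgeR adjusted *P* = 0.121) and 1.52 ± 0.61 in Nrf2 eyes (edgeR adjusted *P* = 0.140), and neither passed the threshold of 0.05.

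The level of *Lcn2* moved with that of *Ltf*, which encodes lactoferrin. Over the 32 libraries its deviations had an r of 0.749 (Spearman rho 0.666) with the summed markers of neutrophils and 0.484 (rho 0.459) with those of surface epithelium. Its nearest genes were *Ctsh* (r 0.771), a lysosomal protease, *Ltf* (0.733), and *Prim1* (0.731), a DNA primase. The neutrophil sum ran from 2.22 to 222 CPM and held mostly *Ltf*, which is also made by glandular epithelium, had a median of 28.5 CPM, and reached 219 CPM. Of the other 9 neutrophil genes, the highest median was 0.444 CPM (*Ly6g*), and *Elane* was at 0 in all 32 libraries. Without *Ltf* the other 9 summed to 0.461 to 10.2 CPM, and their r with *Lcn2* was 0.393. The part of these cells in *Lcn2* was not tested.

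*A2m* encodes alpha-2-macroglobulin, a protease inhibitor that traps its targets in a cage. In control eyes at P20 its level was 141 to 387 CPM (median 188), and in Nrf2 eyes 395 to 1834 CPM (median 989). The groups did not overlap, and the Nrf2 eye was the higher in 7 of 7 mice, by 0.97 to 3.29 on the log2 scale. The fitted difference was 2.33 ± 0.27, or 5.02-fold. The highest control library was that of mouse 3 and the lowest Nrf2 library that of mouse 4, the 2 libraries described above, and without these mice the difference was 2.60.

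By P40 the arms overlapped for *A2m*. The level was 145 to 1392 CPM in control eyes (median 391) and 194 to 1330 CPM in Nrf2 eyes (median 830), and 7 of 9 mice were higher in the Nrf2 eye. The fitted difference was 0.64 ± 0.24, or 1.56-fold, and the Nrf2 effect differed between the ages by −1.68 ± 0.37. With age *A2m* was higher at P40 by 1.35 ± 0.38 in control eyes, while in Nrf2 eyes it differed by −0.47 ± 0.37. Its nearest genes were *Pcyt1b* (r 0.949), *Vit* (0.942), and *Map6d1* (0.926). *A2m* ran opposite to 2 other members over libraries, with an r of −0.744 with *Il18* and −0.678 with *Saa3*.

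In the IL-1 family, *Il1f9* was higher in the Nrf2 eye of all 16 mice, though the size of the difference varied from mouse to mouse. Its product, IL-36γ, is released by epithelia and acts through the IL-36 receptor on NF-κB. At P20 the level was 4.23 to 48.7 CPM in control eyes (median 29.6) and 26.3 to 251 CPM in Nrf2 eyes (median 126). At P40 it was 5.79 to 52.8 CPM in control eyes (median 17.2) and 43.2 to 280 CPM in Nrf2 eyes (median 148). Although the groups overlapped at both ages, the Nrf2 eye was the higher in 7 of 7 and 9 of 9 mice, by 1.15 to 2.98 and by 0.60 to 4.16 on the log2 scale. The fitted differences were 2.14 ± 0.22 (4.40-fold) at P20 and 2.98 ± 0.37 (7.88-fold) at P40. The lowest library of each arm at P20 came from mouse 4, and without mice 3 and 4 the difference at P20 was 2.02.

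With age *Il1f9* differed by −0.52 ± 0.45 in control eyes and 0.27 ± 0.42 in Nrf2 eyes. The nearest genes were *Htatip2* (r 0.874), *Cdkn2b* (0.834), and the glutathione transferase gene *Gstm2* (0.826), whose own differences between Nrf2 and control eyes were 1.58, 1.39, and 1.95 at P20 and 1.88, 1.81, and 2.58 at P40. Within groups, *Il1f9* ran opposite to the summed markers of cones (r −0.610) and rods (r −0.582). Cone markers were lower in Nrf2 eyes, with a median of 31.2 against 309 CPM at P20 and 48.7 against 788 CPM at P40. Of these, edgeR called 2 of 8 lower at P20 and 8 of 8 at P40, beside 0.485% and 1.23% of all genes. Whether the amount of retina left on the tissue bears on *Il1f9* was not tested. Its transcript shares 206 of 1618 words with 48 genes, and over the 14 of these with enough reads the highest r with *Il1f9* was 0.350.

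*Il18* encodes a cytokine that the RPE itself is known to make and that acts on interferon γ production. At P20 its level was 35.7 to 72.0 CPM in control eyes (median 59.2) and 34.9 to 58.6 CPM in Nrf2 eyes (median 40.3). At P40 it was 43.9 to 166 CPM in control eyes (median 67.0) and 32.5 to 172 CPM in Nrf2 eyes (median 43.3). The Nrf2 eye was the lower in 6 of 7 mice at P20 and 8 of 9 at P40, the exceptions being mouse 4 and mouse 8. The fitted differences were −0.39 ± 0.20 at P20 (edgeR adjusted *P* = 0.347, n = 7 pairs) and −0.54 ± 0.17 at P40 (edgeR adjusted *P* = 0.112, n = 9 pairs), and neither passed the threshold.

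Whether *Il18* passed depended on the fit. Over all alternatives, the adjusted *P* value ran from 0.0231 to 0.609 at P20 and from 0.0310 to 0.771 at P40, and the difference was below 0 in each. Without mice 3 and 4 the difference of *Il18* at P20 was −0.65 and passed (edgeR adjusted *P* = 0.0415), and without mouse 4 alone it was −0.58 (edgeR adjusted *P* = 0.0231). At P40 it passed with DESeq2 (−0.54, adjusted *P* = 0.0372), with limma voom (−0.56, adjusted *P* = 0.0310), and after correction for transcript length and GC content (−0.54, edgeR adjusted *P* = 0.0449). The highest values came without mouse 7 at P20 and without the pairing of eyes at P40. With age it differed by 0.62 ± 0.27 in control eyes (edgeR adjusted *P* = 0.113) and 0.56 ± 0.32 in Nrf2 eyes (edgeR adjusted *P* = 0.274).

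*Il18* also followed a property of the libraries. The nearest genes were the short *Dynll1* (r 0.954), which encodes a dynein light chain, *Chmp2a* (0.954), and *Rpl7* (0.951), and the libraries differed in the slope of log2 CPM on transcript length. This slope moved with age. It was above 0 in all 14 libraries at P20, with a median of 0.0881 in control and 0.0442 in Nrf2 eyes (log2 CPM per doubling of length), and below 0 in 5 of 9 control and 7 of 9 Nrf2 libraries at P40, with medians of −0.0652 and −0.0932. The deviations of *Il18*, whose median transcript length is 781 bases, had an r of −0.778 (rho −0.779) with this slope, and −0.693 without the 2 libraries farthest out. For the remaining members the r with the slope lay between −0.605 (*Saa3*) and 0.471 (*A2m*). With the correction for length and GC content, the difference of *Il18* with age was 0.35 in control eyes and 0.27 in Nrf2 eyes. That of *Saa3* with age was 1.10 and 1.20, against 1.53 and 1.55 without the correction. Between the eyes the corrected values stayed near the uncorrected ones. They were −0.43 at P20 and −0.54 at P40 for *Il18*, 2.39 and 0.66 for *A2m*, and 2.15 and 3.02 for *Il1f9*.

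**Figure D2:**
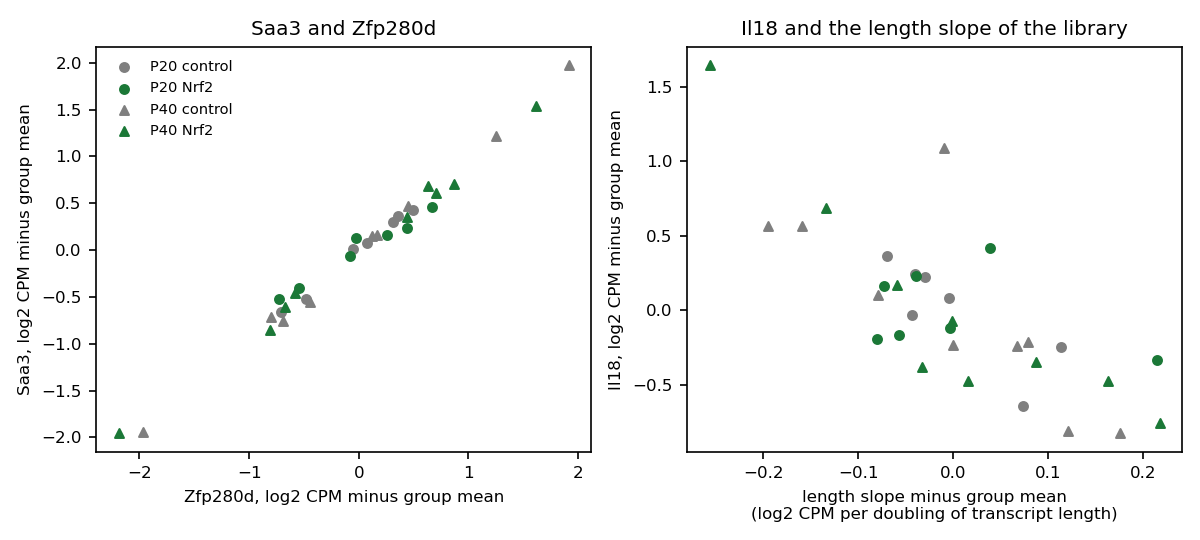
Deviations from the group mean over 32 libraries (circles P20, triangles P40, gray control, green Nrf2), with log2 CPM of *Saa3* against *Zfp280d* on the left and log2 CPM of *Il18* against the slope of log2 CPM on the doubling of transcript length on the right. The points of *Saa3* lie along a line (r 0.994), and *Il18* is lower where the slope is higher (r −0.778).

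*Il33* encodes an alarmin held in the nucleus of barrier and glial cells. At P20 its level was 39.9 to 122 CPM in control eyes (median 93.5) and 39.7 to 77.9 CPM in Nrf2 eyes (median 54.1), lower in the Nrf2 eye of 6 of 7 mice. The exception was mouse 6, whose control eye had the lowest *Il33* of its group. The fitted difference was −0.62 ± 0.21 (edgeR adjusted *P* = 0.173, n = 7 pairs), and limma voom alone put it past the threshold (−0.69, adjusted *P* = 0.0187). Without mice 3 and 4 the difference was −0.72 (edgeR adjusted *P* = 0.188). At P40 the level was 25.3 to 104 CPM in control eyes (median 58.1) and 42.2 to 103 CPM in Nrf2 eyes (median 69.2), higher in the Nrf2 eye of 5 of 9 mice, with a difference of 0.22 ± 0.29 (edgeR adjusted *P* = 0.872, n = 9 pairs). The Nrf2 effect on *Il33* differed between the ages by 0.85 ± 0.39, with an unadjusted *P* of 0.0458 and an edgeR adjusted *P* of 1.000. With age it differed by −0.46 ± 0.28 in control eyes (edgeR adjusted *P* = 0.247) and 0.37 ± 0.20 in Nrf2 eyes (edgeR adjusted *P* = 0.253). Its nearest genes were *Fbln1* (r 0.794), a fibroblast marker, *Best2* (0.790), and *Sod3* (0.777).

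*Il1b* encodes IL-1β, the cytokine that myeloid cells release on activation of the inflammasome. It had 303 reads in all, with reads in 27 of 32 libraries and more than 3 reads in 24. At P20 control eyes had 0 to 15 reads (median 8) and Nrf2 eyes 0 to 11 (median 1), and at P40 control eyes had 5 to 38 (median 8) and Nrf2 eyes 0 to 24 (median 13). It did not pass the filter between the eyes at P20. At P40 the difference between the eyes was 0.18 ± 0.72 (edgeR adjusted *P* = 0.970, n = 9 pairs). With age it was 1.29 ± 0.75 in control eyes (edgeR adjusted *P* = 0.228) and 1.88 ± 0.75 in Nrf2 eyes (edgeR adjusted *P* = 0.139), and the latter passed with limma voom (2.26, adjusted *P* = 0.0206). In Nrf2 eyes 7 of 9 P40 libraries lay above every P20 library in CPM.

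*Il6* and *Cxcl1* are classical products of NF-κB, and the consensus lies in both stretches printed above. *Il6*, the main inducer of acute phase proteins, had reads in 5 of 32 libraries and 36 reads in all. These libraries were the P20 Nrf2 eye of mouse 2 (11 reads), the P40 Nrf2 eyes of mouse 1 (14) and mouse 5 (7), and the P40 control eyes of mouse 1 (2) and mouse 3 (2). Every control library thus lay at or under the floor of 3 reads. It was too low for a test in every comparison, and intervals and floors cover counting error only.

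*Cxcl1*, which draws neutrophils, had 522 reads in all, of which 269 were in the control eye of P20 mouse 6 (11.2 CPM). The next library of that group had 0.661 CPM, and the median of the groups lay between 0.0857 and 0.257 CPM. It passed the filter in 2 comparisons. The Nrf2 effect differed between the ages by 1.39 ± 1.39 (edgeR adjusted *P* = 1.000), and by 0.70 without that mouse. With age in control eyes it differed by −3.01 ± 1.02 (edgeR adjusted *P* = 0.0547), the smallest adjusted *P* value of the testable members in that comparison. Without that library the difference was −0.26 (edgeR adjusted *P* = 0.809), and it was −0.20 with DESeq2 (adjusted *P* = 0.855). The same library also had the highest sum of surface epithelium markers of all 32, 65118 CPM, and the lowest *Il33* of its group. The part of surface epithelium in the *Cxcl1* of this library was not tested.

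**Figure D3:**
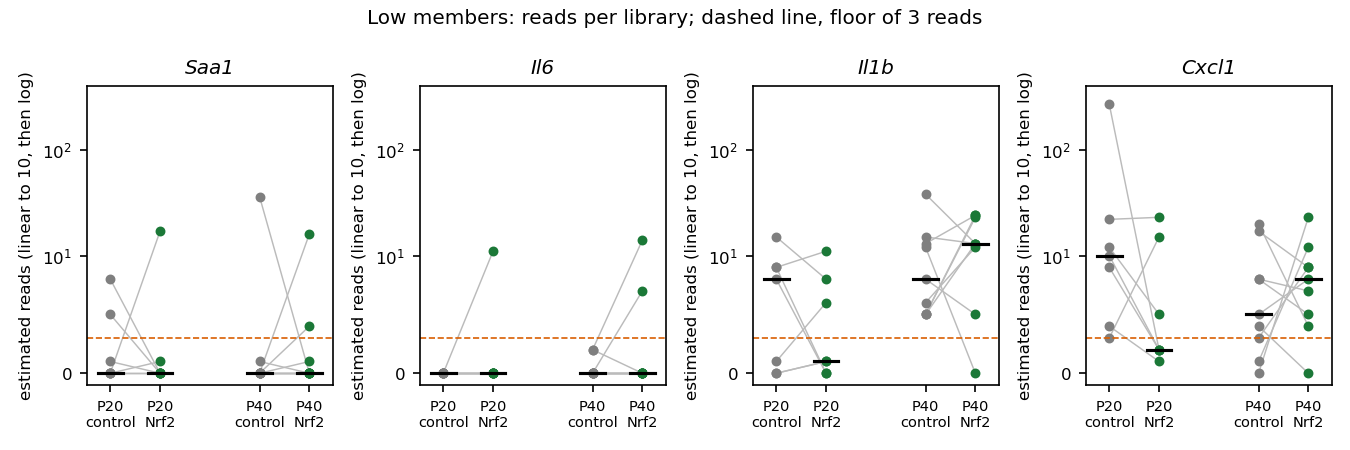
Estimated reads per library of the 4 lowest members by age and eye (axis linear to 10 reads, then log), with lines joining the eyes of a mouse, bars at the medians, and a dashed line at the floor of 3 reads. Most libraries have 0 reads of *Saa1* and *Il6*, and a single control library at P20 holds 269 reads of *Cxcl1*.

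None of the 7 members open to testing was called in any comparison by edgeR. Of those that passed the filter, 0 of 3 were called between the eyes at P20, where 3.41% of all genes tested were called, and 0 of 4 at P40, where 4.57% were called. With age, 0 of 5 were called in control eyes and 0 of 4 in Nrf2 eyes, beside 14.8% of all genes in control eyes (8.34% higher and 6.42% lower) and 0.502% in Nrf2 eyes (0.167% higher and 0.334% lower). When the Nrf2 effects at the 2 ages were compared, 0 of 5 were called and 0.00557% of all genes. At an unadjusted *P* value under 0.05, 1, 1, 3, 2, and 1 members passed in these comparisons, in the same order, beside 18.2%, 13%, 35.2%, 25.8%, and 2.39% of all genes. Limma voom called 1 member at P20 (*Il33*), 1 at P40 (*Il18*), and 1 with age in Nrf2 eyes (*Il1b*), and DESeq2 called 1 at P40 (*Il18*).

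**Figure D4:**
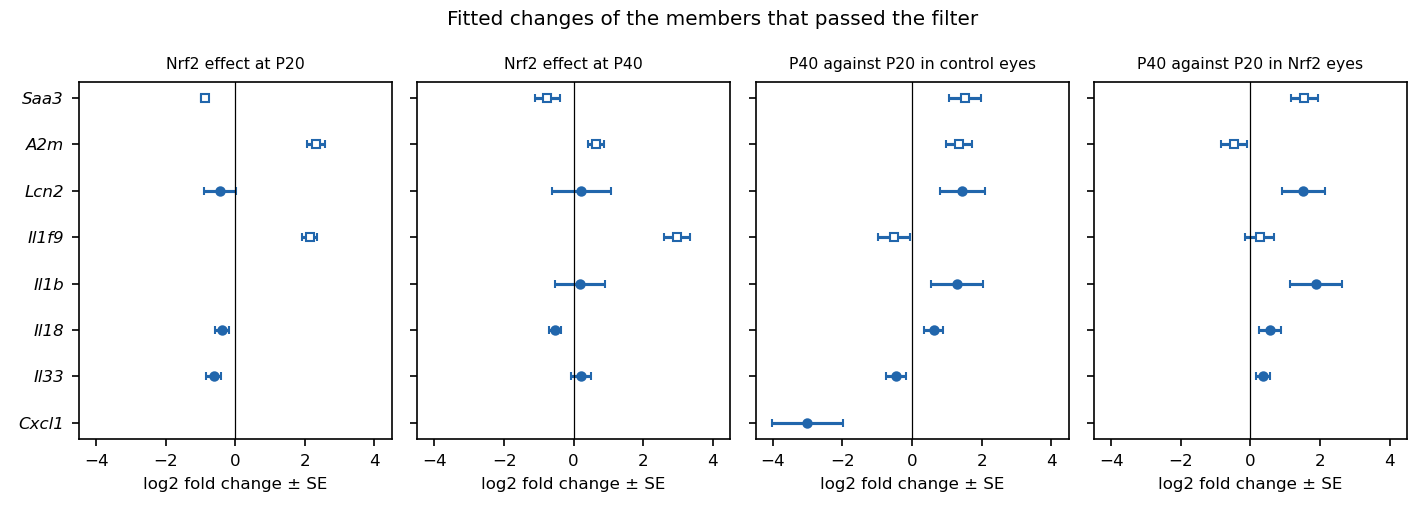
Log2 fold change ± SE of the members that passed the filter in each comparison, with open squares for *Saa3*, *A2m*, and *Il1f9*, which were chosen partly for these values, and filled circles for members open to testing. Between the eyes, *A2m* and *Il1f9* lie right of 0 and *Saa3* left of it at both ages, and with age *Saa3* and *Lcn2* lie right of 0 in both arms.

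Of 135 other genes of these pathways, those called between the eyes were higher in Nrf2 eyes in every case. At P20, 8 of 100 tested were called higher and 0 lower (background 2.93% higher and 0.485% lower), and at P40 12 of 106 were higher and 0 lower (background 3.33% and 1.23%). The 12 include *Ccl2* and *Ccl3*, which passed the filter at P40 only through the Nrf2 eyes. The lists were chosen with earlier results of these data known, so these shares and their direction are a description. In the list of the IL-6 family, *Cntfr*, which encodes the receptor of ciliary neurotrophic factor, was called at P40 (1.08 ± 0.27, edgeR adjusted *P* = 0.0407). Its level rose from 7.97 ± 3.58 to 18.3 ± 9.06 CPM (mean ± SD, n = 9), and the Nrf2 eye was the higher in 9 of 9 mice. At P20 its difference was 0.67 ± 0.42 (edgeR adjusted *P* = 0.433).

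With age in control eyes, 7 of the 104 list genes tested were called higher and 7 lower, or 13.5%, no more than the 14.8% of all genes. The 7 called higher include *Hp*, whose direction is a description, as given below. In the IL-6 family *Lif*, which encodes leukemia inhibitory factor, fell by 1.67 on the log2 scale (SE 0.53, edgeR adjusted *P* = 0.0440) and *Pias3*, an inhibitor of STAT3, fell by 0.62 (SE 0.18, edgeR adjusted *P* = 0.0342). Of the chemokines, *Cxcl14* fell by 1.502 (SE 0.35, edgeR adjusted *P* = 0.0212).

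Among other acute phase proteins, *Lbp*, which carries lipopolysaccharide to its receptor, rose at both ages (1.44 ± 0.22 and 1.38 ± 0.22), as did the serpin gene *Serpina3n* (1.10 ± 0.20 and 1.28 ± 0.22), a marker of reactive glia. *Serpina3n* went from 216 ± 55.2 to 481 ± 141 CPM at P20 (n = 7), higher in all 7 mice. Its relative *Serpina3m* was called at P40 (1.49 ± 0.38), and reads may be divided between the near-identical genes of this cluster. Over the list, the median log2 fold change was 0.27 over 13 genes at P20 and 0.17 over 14 at P40, beside −0.0410 and −0.0261 over all genes tested. In control eyes *Serpina3n* also rose with age (0.68 ± 0.21, edgeR adjusted *P* = 0.0397), and *Hp*, haptoglobin, was called with a level that reached 8.10 CPM in 1 library at P40 and at most 0.481 CPM at P20. *Hp* did not pass the filter on low counts between the eyes at either age or with age in Nrf2 eyes. From so low a level at P20 it could hardly have been called lower, so its direction is a description.

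Chemokines and growth factors of myeloid cells rose in part. Of 12 macrophage and microglia markers, edgeR called 0 at P20 and 7 higher at P40, beside 2.93% and 3.33% of all genes called higher. The median log2 fold change over the 12 markers was 1.07 at P20 and 1.74 at P40. Their summed level, to which *Csf1r* gave the highest median (101.5 CPM), had a median of 260 CPM in Nrf2 against 328 CPM in control eyes at P20. At P40 it was 382 against 224 CPM. The part of these cells in the changes of list genes was not tested. *Cxcl5*, an attractant of neutrophils that shares its receptor with *Cxcl1*, rose at both ages (2.40 ± 0.45 and 2.53 ± 0.43), from means of 0.637 and 0.578 CPM in control eyes to 3.48 and 2.95 CPM in Nrf2 eyes. *Csf1*, the growth factor of macrophages, rose from 12.2 ± 2.14 to 36.1 ± 13.6 CPM at P20 (1.45 ± 0.22) and by 1.68 ± 0.22 at P40. *Ccl3* (2.65 ± 0.63) and *Ccl2* (2.05 ± 0.41) were called at P40 from means under 0.4 CPM in control eyes. Neither passed the filter on low counts when control eyes alone were fitted. They entered the P40 test through their reads in Nrf2 eyes and could hardly have been called lower, so their direction is a description. The median of the chemokine list was −0.18 over 11 genes at P20 and 0.64 over 15 at P40. With age, *Ppbp*, a platelet chemokine, was the single gene of all lists called in Nrf2 eyes (2.85 ± 0.41, edgeR adjusted *P* = 0.00443).

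Of the NF-κB and C/EBP genes, *Icam1*, an adhesion molecule for leukocytes, rose by 1.38 ± 0.27 at P20 and 1.35 ± 0.19 at P40, and *Cebpb*, a factor that binds C/EBP sites, by 1.01 ± 0.20 and 0.88 ± 0.14. *Tnfrsf1a*, the TNF receptor, was called at P20 (0.80 ± 0.15) and had a difference of 0.64 ± 0.22 at P40 (edgeR adjusted *P* = 0.177). The list was otherwise balanced, with 13 genes higher and 12 lower at both ages and a median of 0.00142 and 0.0537. In control eyes with age, 4 of the 25 genes tested in this list were called higher and 3 lower, beside 8.34% and 6.42% of all genes. Among those called, *Cebpd* rose (0.96 ± 0.22), while *Zc3h12a*, which encodes an RNase that degrades cytokine transcripts (−2.32 ± 0.63), and *Cebpa* (−1.64 ± 0.45) fell.

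In the IL-1 family list, which holds the receptors and inhibitors of *Il1f9*, *Il1b*, *Il18*, and *Il33*, 0 of 19 genes were called between the eyes at either age, with 4 and 1 at an unadjusted *P* value under 0.05 (18.2% and 13% of all genes). Its median was −0.38 at P20 and −0.32 at P40, with 15 of 19 genes lower in Nrf2 eyes each time. With age in control eyes, *Il18bp*, the secreted inhibitor of IL-18, rose by 0.81 ± 0.22 (edgeR adjusted *P* = 0.0305) and *Il1r1*, the receptor of IL-1β, fell by 1.33 on the log2 scale (SE 0.24, edgeR adjusted *P* = 0.00895). Of the inflammasome list, *Ctss*, a cathepsin that cleaves the IL-36γ precursor, was called at P40 (1.35 ± 0.22, edgeR adjusted *P* = 0.00385) and was 0.82 ± 0.52 at P20. No gene of the list of receptors and relatives of serum amyloid, lipocalin, and macroglobulin was called in any comparison, with 2 of 8 at P20 and 3 of 8 at P40 at an unadjusted *P* value under 0.05, beside the same shares of all genes. None of the 109 list genes tested for an Nrf2 effect that differed between the ages was called by edgeR.

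**Figure D5:**
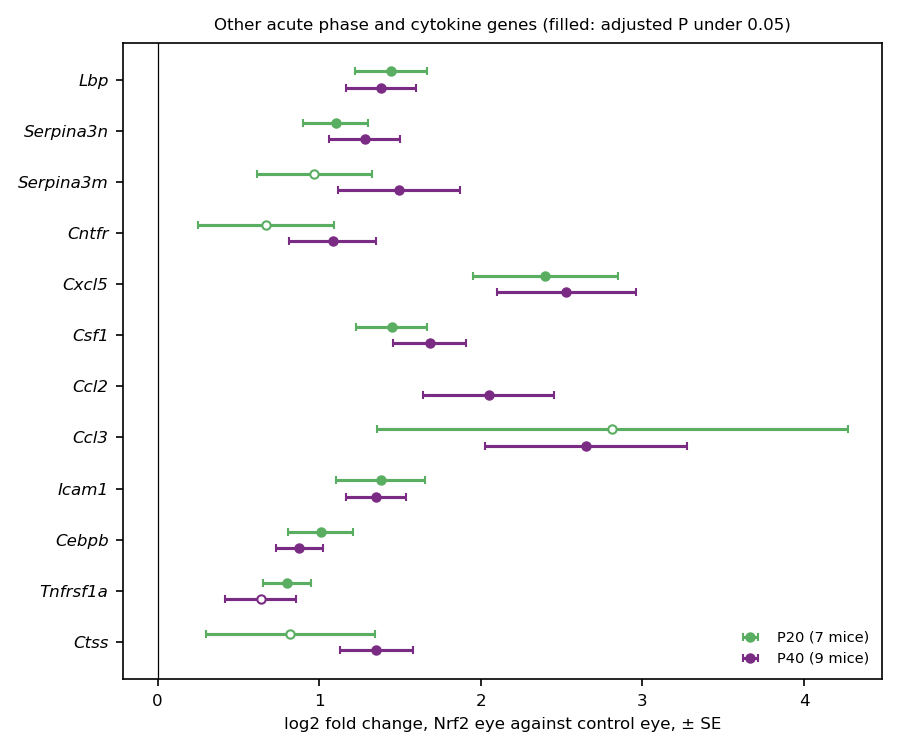
Log2 fold change ± SE between Nrf2 and control eyes at P20 (green) and P40 (purple) for 12 other genes of the acute phase and cytokine lists, filled where the edgeR adjusted *P* value is under 0.05. All 12 lie right of 0, which this choice fixes at the age of the call. *Cxcl5*, at 2.40 and 2.53, is the farthest of those filled at both ages.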

How the data were processed

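The authors deposited whole-number estimated counts for each gene, with no normalization for depth, length, or GC content. RNA had been amplified, and the submitters' processing notes name FastQC and Salmon 0.9.1. Strandedness and the counting step are not given in the sources used here. Each estimated count was used as deposited in R 4.3.3 with edgeR 4.0.16 (filterByExpr, TMM, quasi-likelihood test) with Benjamini-Hochberg adjustment across every gene tested and a threshold of 0.05.

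Nrf2 and control eyes were compared at each age with the mouse as a block, P40 and P20 within each arm without a block, and the Nrf2 effects at the 2 ages with each other by an interaction term in 1 fit of the 32 libraries. SEs come from the fold change divided by the root of F. The pairing comes from the labels, since the 2 eyes are from 1 animal. At P20 the deviations of the 2 eyes from their group means correlated with r −0.0256 on average, and at P40 with r 0.139. Each mouse was taken as a replicate.

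Members and lists were chosen with earlier results of these data known. Named beside the members were up to 3 genes called per list and comparison with the largest absolute change, and for each member the 3 most similar genes with a mean log2 CPM of at least 2.

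Alternatives were DESeq2 1.42.0, limma voom (limma 3.58.1), RLE normalization, no filter, the block added or dropped, leaving out each mouse or eye, and leaving out P20 mice 3 and 4. The correction for transcript length and GC content (a spline per library) was chosen after seeing the data. All fits were tested on simulated data first. Words of 31 bases were compared over GENCODE M21 transcripts. *A2m* has no RefSeq promoter entry. One gene of the lists is counted in the lists' totals and is not reported here.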

Additional observations from a re-analysis of the deposited data

Results flagged for a closer look

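A library was taken as standing apart by Dixon's test on log2 CPM. Its gap to the nearest other library of its group then had to be large relative to the range of the group. Chance gives this in about 1 in 20 groups. Of 32 groups tested, 4 held such a library. *Il1f9* was lowest in both eyes of P20 mouse 4, with 4.23 CPM in the control eye (next 23.2 CPM) and 26.3 CPM in the Nrf2 eye (next 108 CPM), so the difference between its eyes was kept. This mouse's Nrf2 library also had the lowest transgene level of its arm, 1082 CPM. *Cxcl1* was highest in the control eye of P20 mouse 6, with 11.2 CPM (next 0.661 CPM). *Il1b* was at 0 in the Nrf2 eye of P40 mouse 8 (next 0.216 CPM), so its gap depends on the small count added before taking logs.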

How the results depend on the processing

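Of 397 fits of the members open to testing under alternatives, 377 kept their direction and their side of the threshold, 7 passed it only in the alternative, and 13 changed direction. Of 294 fits of *Saa3*, *A2m*, and *Il1f9*, which had no test, 292 kept their direction. Counts of all genes called moved by more than 1.5 times with the tool. At P20 DESeq2 called 1951, limma voom 2605 and edgeR 556, 348 were called with no filter and 1093 with no replicate block. At P40 DESeq2 called 1380 and limma voom 1327. With age, the counts were 4362, 3747, and 914 in control eyes and 1762, 2213, and 31 in Nrf2 eyes, for DESeq2, limma voom, and no filter. They were 1526 in control eyes with the correction for length and GC content, and 158 and 20 without P20 mice 3 and 4. DESeq2 called 12 genes for the difference between the ages. Leaving out 1 library or mouse gave 111 to 1999 calls at P20, 473 to 4273 with age in control eyes, and 21 to 190 in Nrf2 eyes. The 1999 came from leaving out mouse 4 and the 4273 from leaving out P40 mouse 1. The cause was not tested.

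Between the ages, a replicate block by number pairs unrelated mice, and it left 191 calls in control eyes and 3 in Nrf2 eyes, with 0 members called in either. Dropping the pairing of eyes called no member at P20 or P40.

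Of the members open to testing, 1 was called at P20 by limma voom (*Il33*) and 1 without mice 3 and 4 (*Il18*), with 0 to 1 when each mouse was left out. At P40, 1 was called by DESeq2, by limma voom, and with the correction for length and GC content (*Il18* each time), and with age in Nrf2 eyes 1 by limma voom (*Il1b*). Direction changed for *Lcn2* at P20 with limma voom (0.0341), and at P40 with limma voom (−0.0583), with no replicate block (−0.104), and without mouse 1 (−0.244) or 3 (−0.193). *Il1b* at P40 turned with no replicate block (−0.0775) and without mouse 1 (−0.0467), 4 (−0.126), or 7 (−0.00696). For the difference between the ages, *Lcn2* turned with limma voom (−0.189), *Il18* without P20 mice 3 and 4 (0.0868) or mouse 4 alone (0.0261), *Il1b* without P20 mouse 6 (−0.00669), and *Saa3* without P40 mouse 1 (−0.0429) or 6 (−0.0877). Depth limits *Saa1*, *Il6*, *Il1b*, and *Cxcl1*, which were at or under 3 reads in 8 or more of 32 libraries. When each mouse was left out, the values ran up to 0.678 for *Lcn2* and 0.602 for *Il1b* at P40, and for the difference between the ages from −0.259 for *Il18* and up to 1.14 for *Il1b* and 0.311 for *Saa3*.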
